A study of Mus musculus with 21 samples.

Results

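The 12 control libraries of the series came from the hippocampus of standard-reared (SR) mice and fell into 4 sets of 3 mice with consecutive animal numbers in the sample titles. The sets are called A (54950 to 54952), B (55000 to 55002), C (55062 to 55064) and D (57137 to 57139), and the mice A1 to D3. Mice of a set are in the order of their animal numbers, except that D1 is 57138 and D2 is 57137. These were 12 of the 21 libraries in the series, the other 9 being from mice with maternal separation (MS), which formed 3 further sets, E to G. All mice were male C57BL/6 wild types bred in-house and taken at 10 weeks, with no transgene or drug. MS nests had been parted from the dam for some hours a day, over a run of days that ended before weaning, while SR nests had not. Per the study's methods, most of the nesting material was also taken out of MS home cages during those days. MS and SR mice therefore differed in more than separation from the dam. Pups were balanced over the dams within a day of birth and, after weaning, males lived 3 to a cage with litter mates. The labels name no nest, so the sets were taken as nests from their numbers alone, and birth dam, rearing nest, cage and any day or order of handling that a set shared cannot be told apart. The library numbers of B3 and D3 (23 and 24) came after those of the other SR mice.

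Differences between litters of one inbred strain are the background on which a rearing effect has to be read, since pups of a nest share a rearing dam, a cage and a history. In the hippocampus several programmes are known to follow the state of the animal within hours. Glucocorticoids released by the adrenal act through a receptor that binds DNA as a pair at a palindromic element and induce kinases, metallothioneins and repressors of inflammation. Immediate early genes respond to firing of neurons within minutes, clock genes cycle with the time of day through E-box elements, and chaperones of the endoplasmic reticulum are induced through XBP1 and ATF6 when unfolded proteins build up.

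For 3 of these programmes a short DNA element was looked for in promoters, and the promoters below carry it in genes whose levels are given further on. They run from 250 bases before to 50 after a start in RefSeq, 5′ to 3′ on the gene's strand, on GRCm38.p6. The capitals mark the element. For Sgk1 it is the full palindrome bound by the glucocorticoid receptor, AGAACA and TGTTCT with 3 bases between them (chr10:21993640-21993939, plus strand).
Sgk1: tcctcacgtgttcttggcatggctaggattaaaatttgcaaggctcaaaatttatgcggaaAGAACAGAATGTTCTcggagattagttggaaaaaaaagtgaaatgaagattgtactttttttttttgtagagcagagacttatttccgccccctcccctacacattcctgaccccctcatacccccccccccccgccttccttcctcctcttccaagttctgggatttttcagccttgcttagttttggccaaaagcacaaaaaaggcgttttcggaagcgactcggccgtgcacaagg
The palindrome starts 189 bases before this start of Sgk1, which is 1 of several that RefSeq gives the gene. Of 32851 promoter windows 3 held it (0.00913%), and of the 19 glucocorticoid-induced genes with a window only Sgk1 did. For the clock genes Per1 (chr11:69098699-69098998, plus strand) and Ciart (chr3:95882179-95882478, minus strand) the element is the E-box CACGTG.
Per1: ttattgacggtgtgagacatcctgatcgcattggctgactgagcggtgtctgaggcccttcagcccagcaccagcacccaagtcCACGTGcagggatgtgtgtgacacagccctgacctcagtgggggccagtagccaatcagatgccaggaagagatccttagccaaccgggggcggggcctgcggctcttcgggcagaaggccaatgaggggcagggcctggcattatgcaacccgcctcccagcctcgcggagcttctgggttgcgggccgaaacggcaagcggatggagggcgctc
Ciart: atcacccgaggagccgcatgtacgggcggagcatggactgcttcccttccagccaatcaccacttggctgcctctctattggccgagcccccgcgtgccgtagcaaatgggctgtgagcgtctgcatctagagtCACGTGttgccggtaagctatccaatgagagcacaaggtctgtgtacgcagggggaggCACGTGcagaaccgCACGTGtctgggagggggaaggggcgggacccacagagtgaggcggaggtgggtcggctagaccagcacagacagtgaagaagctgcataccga
Ciart held 3 E-boxes, and 5 of the 18 clock genes with a window held at least 1 (27.8%), where 10.9% of the 12780 tested genes with a window did. For Hspa5 (chr2:34771840-34772139, plus strand), the main chaperone of the endoplasmic reticulum, the element is the ER stress response element, CCAAT and CCACG with 9 bases between them.
Hspa5: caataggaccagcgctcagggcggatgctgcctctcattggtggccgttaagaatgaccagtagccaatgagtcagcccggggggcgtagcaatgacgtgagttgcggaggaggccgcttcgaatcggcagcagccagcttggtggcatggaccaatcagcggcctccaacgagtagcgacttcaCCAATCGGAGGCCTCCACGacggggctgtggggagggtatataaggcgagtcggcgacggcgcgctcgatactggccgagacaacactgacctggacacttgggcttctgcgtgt
In the unfolded protein response list 8 of the 21 genes with a window held this element (Calr, Canx, Creld2, Dnajc3, Hsp90b1, Hspa5, Pdia6 and Syvn1), which is 38.1%, against 0.172% of tested genes with a window. Motifs were searched on both strands, and a match describes the letters and not a site in use.

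The SR libraries held 18368519 to 26450808 counted reads (median 23210558), and 19023 of 55487 listed genes had enough counts to be tested. Levels are given as CPM, the counts of a gene scaled to a library of fixed size by the TMM method. Hippocampal neurons were represented throughout, the granule cell gene Prox1 lying between 79.7 and 155 CPM and the CA1 gene Wfs1 between 126 and 199 CPM. Markers of neighbouring tissue differed between mice: the summed choroid plexus list lay between 201 and 7429 CPM, and the summed striatal list was 493 CPM in B2 and 197 CPM in B1 against 115 CPM in B3 and 118 to 146 CPM in the other 9 mice. In bulk tissue fewer cells of a type and less RNA per cell cannot be told apart. No pair of SR libraries agreed within sampling noise.

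Across all genes together, the division into 4 sets was not told apart from other divisions of the 12 mice. Of the sum of squares of log2 CPM, 29.3% lay between sets, where sets take 27.3% of the degrees of freedom, and an exact one-sided permutation test over all divisions of the mice into 4 sets of 3 gave p = 0.293. For a single gene the median between-set share was 29.0% (quartiles 16.2% and 43.1%), and the share was over 80% for 126 genes. The median SD within sets was 0.16 on the log2 scale and the median SD of the 4 set means was 0.09.

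The genes that did differ were few. With edgeR's quasi-likelihood test of any difference among the 4 sets and an adjusted p under 0.05, 3 genes of 19023 were called (0.0158%): Oplah, Klf10 and Sgk1. Without adjustment 1420 genes had p under 0.05 (7.46%), and with single mice left out this count ran from 993 without B2 to 2435 without B3. limma-voom also called 3 genes, and DESeq2's likelihood ratio test called 89 of 19006 (0.468%), all of which had an unadjusted edgeR p under 0.05. Of those 89 the set of highest mean was B for 53, and the set of lowest mean was D for 58.

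Oplah encodes 5-oxoprolinase, which returns glutamate from 5-oxoproline in the glutathione cycle. It was 35.5, 36.0 and 34.5 CPM in set A, 31.6, 33.9 and 36.9 CPM in set B, 23.3, 23.6 and 22.9 CPM in set C, and 36.7, 37.2 and 37.0 CPM in set D. All 3 mice of set C lay below the other 9. Oplah was lower in set C than in the mean of the other sets by -0.61 ± 0.05 (log2, SE; edgeR adjusted p = 0.000320), and the adjusted p among the 4 sets was 0.00367. The gene lies on the minus strand of chr15:76296601-76328015 (GRCm38) and overlaps Exosc4 and Smpd5 on the other strand; Exosc4 had 13.6 to 18.4 CPM in set C and a set C difference of 0.08 (log2). In the 9 MS mice Oplah lay between 32.1 and 43.3 CPM, above all 3 mice of set C. The call remained without any single library.

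Klf10, a Krüppel-like transcription factor first known as a target of TGF-beta, was 29.4, 26.2 and 28.7 CPM in set A, 33.1, 33.1 and 34.6 CPM in set B, 30.5, 29.6 and 33.7 CPM in set C, and 16.6, 20.98 and 16.3 CPM in set D. All 3 mice of set D were below the other 9, the nearest pair being D2 and A2. The set D difference was -0.78 ± 0.08 (log2, SE; edgeR adjusted p = 0.00191), and the adjusted p among sets was 0.00751, which became 0.0968 without D1 and 0.0889 without D3. Among the 3 MS sets, scaled over all 21 libraries, Klf10 was 35.0, 38.9 and 31.0 CPM in set E against 22.8 to 27.9 CPM in set F and 22.3 to 28.6 CPM in set G (edgeR adjusted p = 0.389, unadjusted p = 0.00402).

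Sgk1, the serum- and glucocorticoid-regulated kinase whose promoter is shown above, was 93.3, 104 and 105 CPM in set A, 43.6, 60.6 and 55.2 CPM in set B, 80.7, 86.4 and 90.9 CPM in set C, and 67.9, 61.8 and 68.6 CPM in set D. The sets did not overlap, in the order A, C, D and B, and the mean of set A was 1.89 times that of set B. The adjusted p among sets was 0.0147 (edgeR). Against the mean of the other sets, A was 0.59 ± 0.08 higher and B -0.64 ± 0.08 lower (log2, SE), with edgeR adjusted p of 0.0857 and 0.0729, so the call was of a difference among sets and of no single set. It was lost without A2, A3, C2, D1 or D3 (edgeR adjusted p 0.0758 to 0.120), with a term for the striatal score (0.0644), with a term for the late library numbers (0.0758) and in a fit of all 21 libraries (0.360), where the set B difference was -0.71, -0.66 and -0.64. In MS mice Sgk1 ranged from 58.9 to 116 CPM.

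Zfp366, a zinc finger repressor that binds nuclear receptors, was the other gene called in a set against the rest. It was 6.19, 6.59 and 7.76 CPM in set D and between 9.44 and 16.2 CPM in the other 9 mice, with a set D difference of -0.87 ± 0.12 (log2, SE; edgeR adjusted p = 0.0314); among the 4 sets its adjusted p was 0.0770. Against the other 3 sets, set A had no called gene by edgeR or limma-voom, with 421 genes at an unadjusted p under 0.05 (2.21%; 1.12% higher and 1.09% lower), and DESeq2 called 1 gene, higher in A (0.00271%). Set B had none by edgeR or limma-voom, with 2427 genes at an unadjusted p under 0.05 (12.8%), while DESeq2 called 65 higher (0.355%) and 30 lower (0.164%). For set B the edgeR count was 81 with no filter on low counts and 200 without B3. Set C had 1 called gene, Oplah, lower by edgeR (0.00526% of genes tested), limma-voom (0.00526%) and DESeq2 (0.00271%), with 927 genes at an unadjusted p under 0.05 (4.87%). Set D had 2 called genes, Klf10 and Zfp366, both lower by edgeR (0.0105%), with 1662 at an unadjusted p under 0.05 (8.74%), 1 called by limma-voom (0.00526%), and 14 higher (0.083%) and 42 lower (0.249%) by DESeq2. These 4 contrasts share mice.

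Whether or not a gene was called, a set could stand apart with all 3 of its mice above or all below the other 9, and 1049 genes did so for some set (5.51%). Set A stood above for 50 genes (0.263%) and below for 50 (0.263%), set B above for 172 (0.904%) and below for 200 (1.05%), set C above for 88 (0.463%) and below for 69 (0.363%), and set D above for 191 (1.00%) and below for 251 (1.32%).

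**Figure D1:**
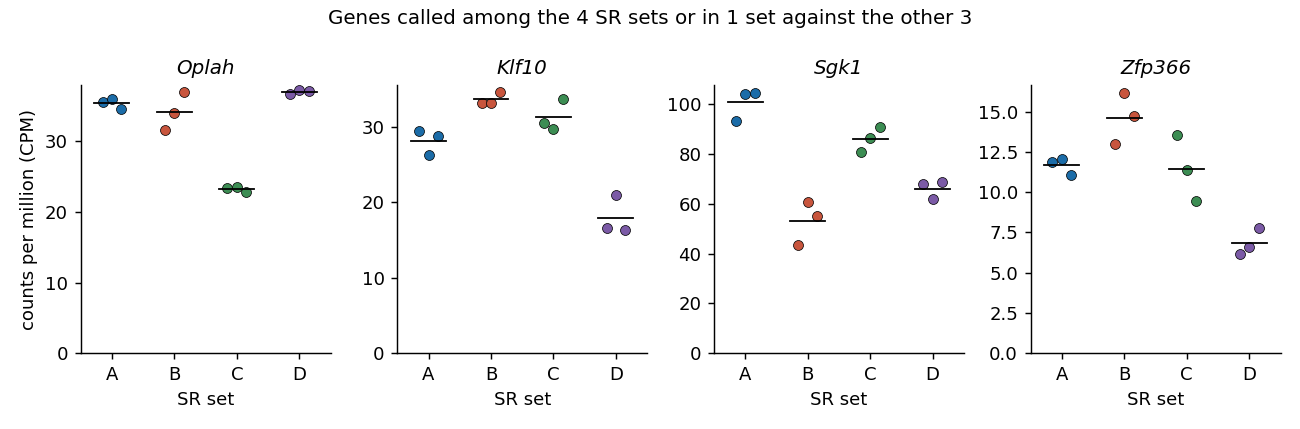
CPM (y axes, from 0) of Oplah, Klf10, Sgk1 and Zfp366 in each SR mouse (points) by set (x axes), with the mean of 3 mice as a bar. Oplah was low in all 3 mice of set C, Klf10 and Zfp366 in all 3 of set D, and the 4 sets of Sgk1 did not overlap.

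The genes next in order had adjusted p above the threshold and are given as values. Nr1d1, the clock repressor REV-ERB alpha, was 85.3, 81.8 and 84.5 CPM in set D and between 93.7 and 123 CPM in the other 9 mice (edgeR adjusted p among sets 0.105). Nr1d1 overlaps Thra on the other strand. Junb, an AP-1 subunit, was 37.7, 46.1 and 38.5 CPM in set D and 50.6 to 74.4 CPM elsewhere (0.119). Both had every mouse of set D below all other SR mice, as 251 genes did (1.32%).

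Other genes with set D lowest were Irf9, part of the interferon-activated complex ISGF3, at 13.8 to 14.4 CPM against 15.5 to 21.2 CPM, the splicing kinase Clk1 at 108 to 125 CPM against 130 to 155 CPM, and the adiponectin receptor Adipor2 at 46.8 to 53.8 CPM against 57.9 to 64.8 CPM. Set D lay above the rest for Ppp1r10, a partner of protein phosphatase 1 (69.3 to 75.5 CPM against 54.1 to 66.3 CPM), and for Specc1 (128 to 135 CPM against 97.8 to 117 CPM). Set B lay above the rest for the ceramidase Acer2 (8.09 to 8.24 CPM against 4.39 to 6.86 CPM). The tight junction gene Cldn5 split the sets into pairs, with 30.8 to 35.8 CPM in set B, 28.8 to 34.6 CPM in set D, and 20.4 to 25.7 CPM in sets A and C. The edgeR adjusted p among sets of these genes was between 0.211 and 0.296.

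Genes were then grouped by function, in lists whose members had been chosen with earlier results of these data known. The shares and counts of a list beside those of all genes are therefore a description. For each of 34 lists the share of each gene's sum of squares lying between sets was taken, beside the median of 29.0% over all genes tested. The lists at the top were glucocorticoid-induced genes (median 55.3%), immediate early genes (54.9%), the circadian clock (52.1%), the unfolded protein response (51.4%), brain endothelial cells (50.01%) and motile cilia with ependyma (47.8%). At the bottom were mature oligodendrocytes and myelin (17.7%), blood (16.2%), C57BL/6 substrain genes (10.3%) and the choroid plexus (9.70%). Without B2 myelin had 27.9%, beside 28.3% over all genes. Blood (18.1%), substrain genes (9.03%) and the choroid plexus (16.2%) stayed low without B2, and dentate granule cells went from 21.1% to 13.7%. Of the members of all lists only Sgk1 was called, so the counts that follow are of unadjusted p under 0.05.

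**Figure D2:**
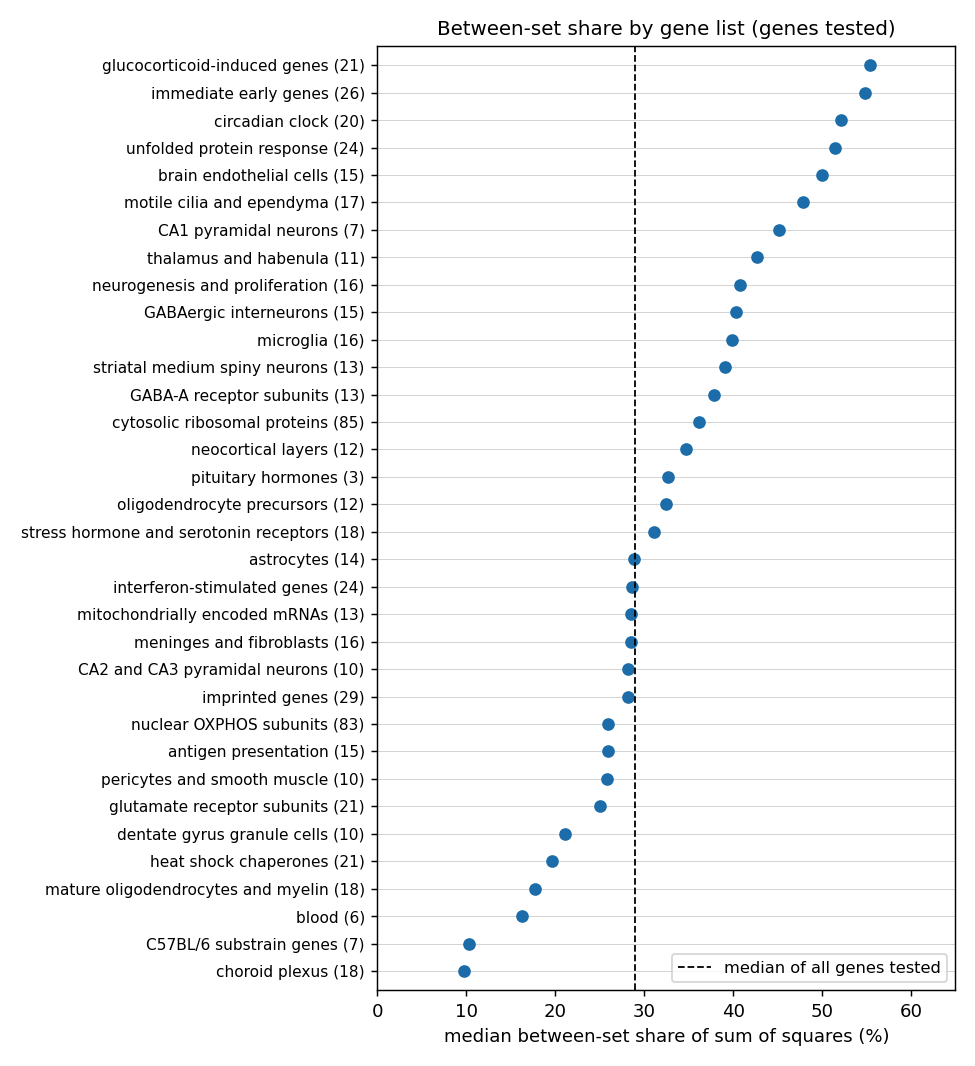
Median share of the sum of squares of log2 CPM that lay between the 4 SR sets (x axis, %) for 34 gene lists (y axis, number of genes tested in brackets), with the median over all 19023 genes dashed. Glucocorticoid-induced, immediate early, clock and unfolded protein response genes lay above 50%, and the choroid plexus list lay at 9.70%.

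Among glucocorticoid-induced genes 11 of 21 had an unadjusted p under 0.05 among sets (52.4%, against 7.46% of all genes tested), and 14 lay below the other sets in set D at that level (4.57% of all genes). The mean list score was -0.15 in set D (log2, deviation from the mean of 12 mice), with -0.16, -0.13 and -0.17 in its mice and -0.03 to 0.11 in the other 9. Members that led it were Tsc22d3, which encodes the anti-inflammatory protein GILZ, at 52.3, 51.2 and 52.4 CPM in set D and 57.5 to 77.3 CPM elsewhere, and the metallothionein Mt1 at 45.5, 47.5 and 47.4 CPM against 50.0 to 68.5 CPM. Zbtb16, a zinc finger gene induced by steroids, was 82.3, 94.5 and 81.4 CPM in set D and 97.4 to 115 CPM elsewhere. Sgk1 did not share this order, since set B was its lowest, and Nfkbia, the inhibitor of NF-kappa B, was low in B (19.0 to 20.9 CPM) as in D (17.8 to 20.0 CPM) against 22.9 to 26.7 CPM in A and C. Fkbp5, a co-chaperone of the receptor and a common reporter of its activity, lay between 50.3 and 73.9 CPM with no order by set (between-set share 15.8%). The count was 8 to 12 without any single mouse and 14 with a term for the striatal score.

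Of 26 immediate early genes 15 had an unadjusted p under 0.05 (57.7%), with 16 higher in set B (6.85% of all genes) and 12 lower in set D (4.57%). The list score was 0.23, 0.51 and 0.20 in the mice of set B and -0.31, -0.21 and -0.23 in those of set D. Fos, an AP-1 subunit, was 15.5, 23.6 and 10.8 CPM in set B, 4.44, 4.02 and 4.86 CPM in set D and 4.96 to 12.0 CPM in sets A and C. Arc, which acts on AMPA receptor trafficking at synapses, was 83.9, 104 and 88.3 CPM in set D and 138 to 340 CPM in the other 9 mice. Npas4, a transcription factor induced by calcium entry, was 21.1, 30.1 and 17.9 CPM in set B, above the other 9 mice at 8.01 to 15.3 CPM. Fosb at 4.37 to 4.86 CPM and Gadd45b at 7.02 to 7.71 CPM in set D were below all others too, at 5.00 to 9.35 CPM and 8.41 to 11.4 CPM. Jun, Nr4a2 and Fosl2 had between-set shares of 15.3%, 15.5% and 18.0%, below the median over all genes. The highest mouse of the list, B2, was the mouse of highest striatal markers. Without B2 the count was 10 (993 over all genes), with a term for the striatal score 12 (1106), and without B3 it was 19 (2435). The part of striatal tissue in the set B values was not tested.

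For the circadian clock 9 of 20 genes had an unadjusted p under 0.05 among sets (45.0%). Against the other sets 12 were higher in set B (6.85% of all genes) and 7 lower in set D (4.57%). The scores of the mice of set D were -0.11, -0.12 and -0.12, while set B ranged from 0.01 in B3 to 0.30 in B2. Dbp, a PAR bZIP factor under E-box control, was 66.3, 63.6 and 63.1 CPM in set D and 72.2 to 97.6 CPM elsewhere. Per1 was 90.1, 101 and 94.5 CPM in set D against 112 to 167 CPM, and Ciart was 12.8, 12.4 and 13.7 CPM against 14.8 to 21.6 CPM. Per1 is in the glucocorticoid list as well. Arntl, whose protein drives the E-box genes, had set means of 25.2 to 27.5 CPM (between-set share 18.4%), and Cry2 had 163 to 169 CPM (8.66%). The count was 6 without B2, 6 with the striatal term and 12 without B3, where the count over all genes moved the same way.

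The unfolded protein response list had 13 of 24 genes at an unadjusted p under 0.05 (54.2%), with 13 higher in set D (4.17% of all genes) and 6 lower in set C (2.69%). Here D2 stood away from its set. Hspa5 was 350, 256 and 356 CPM in set D and 209 to 282 CPM in the other 9 mice, and the lectin chaperone Calr was 413, 336 and 391 CPM against 304 to 350 CPM. Xbp1, the transcription factor of this response, was 76.5, 67.1 and 82.6 CPM in set D, 70.0 to 78.1 CPM in set B and 55.3 to 69.1 CPM in sets A and C. The list score of D2 was -0.02 where D1 and D3 had 0.20 and 0.16. Without D1 or without D3 the count was 6 (1105 and 1012 over all genes), without D2 it was 15 (1198), and in the fit of all 21 libraries it was 5 (856). Heat shock chaperones of the cytosol did not share this, with 1 of 21 genes at that level.

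**Figure D3:**
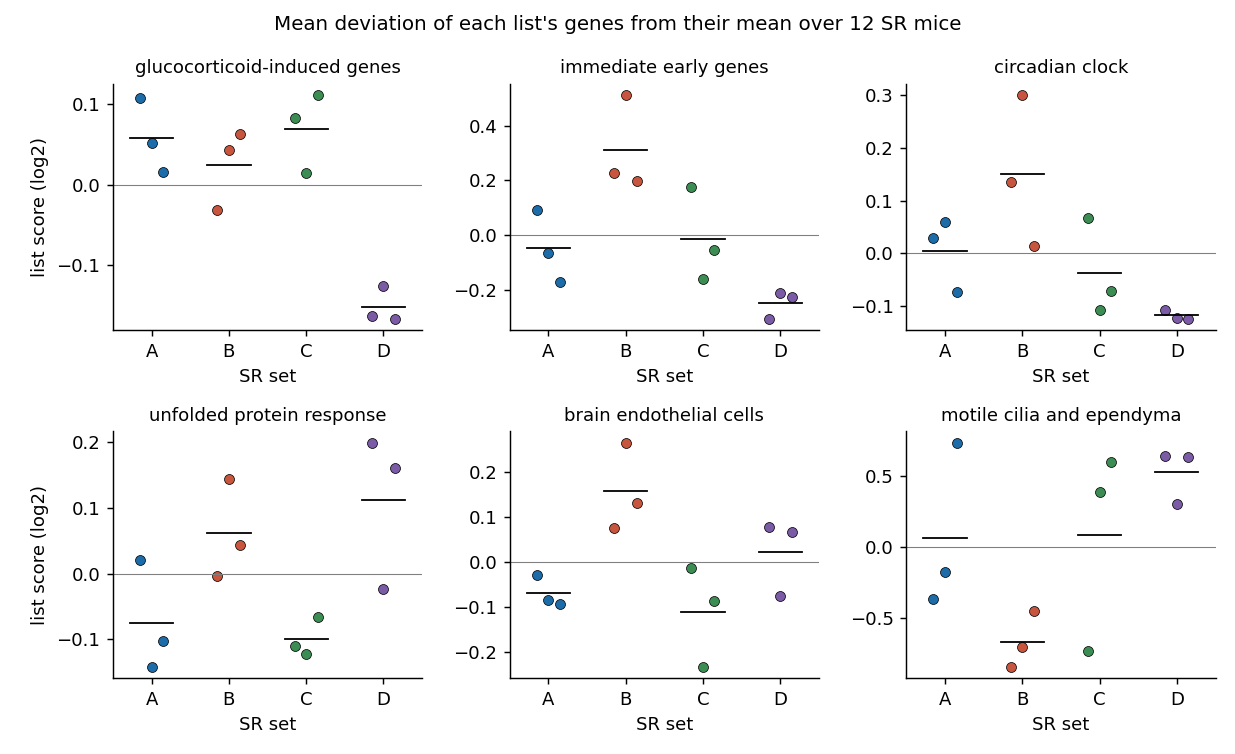
Score of 6 gene lists (y axes, mean over genes of the log2 CPM deviation from the mean of 12 SR mice) for each mouse (points) by set (x axes), with the mean of 3 mice as a bar. Set D was lowest in all 3 mice for glucocorticoid-induced and immediate early genes and B2 was the highest mouse for immediate early and clock genes, while set A and set C had cilia scores of both signs.

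Brain endothelial genes had 6 of 15 at an unadjusted p under 0.05 among sets (40.0%, against 7.46% of all genes tested). Against the other sets 9 were higher in set B (6.85% of all genes) and 6 lower in set C (2.69%). Without B2 the count among sets was 3, and over all genes it went from 1420 to 993. The median between-set share was then 41.0%, beside 28.3% over all genes. With the striatal term the count was 3 (1106 over all genes). Besides Cldn5, the VEGF receptor Kdr was 20.7, 15.9 and 21.9 CPM in set D and 10.7 to 12.0 CPM in set C, and Vwf, the von Willebrand factor, was 35.3 to 38.3 CPM in set B and 14.5 to 26.1 CPM in set C. Pericyte and smooth muscle genes had 2 of 10, led by the myosin Myh11, at 15.3 to 17.4 CPM in set B and 9.98 to 16.1 CPM elsewhere.

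Genes of motile cilia, which line the ventricle on ependymal cells, had 6 of 17 at that level (35.3%), with 13 lower in set B (5.90% of all genes). Tmem212 was 0.634, 0.376 and 0.710 CPM in set B and 0.761 to 2.26 CPM in the other 9 mice. Rarres2, which encodes the chemoattractant chemerin, was 6.04 to 7.12 CPM in set D and 2.92 to 6.03 CPM elsewhere. Ccdc180 is not in this list and was named because it was low in set B. It was 0.338 to 0.710 CPM there against 1.08 to 2.90 CPM. Choroid plexus markers, from the ventricles that ependyma lines, were 201, 1615 and 774 CPM in sum in set B. Their part in the result was not tested. With a term for the choroid plexus score the count was 10, with the striatal term 3 and in the fit of all 21 libraries 0, and it ran from 3 without B1 to 11 without A3 or C1.

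The choroid plexus list itself was the clearest case of spread within sets. Ttr, the thyroid hormone carrier secreted by this tissue, was 49.1, 756 and 4099 CPM in set A, 10.4, 724 and 346 CPM in set B, 17.7, 1731 and 1795 CPM in set C, and 3668, 23.5 and 1341 CPM in set D. Every set held its lowest mouse among the 4 lowest of all, at 10.4 to 49.1 CPM, and a mouse at 724 CPM or more, and 6.69% of the gene's sum of squares lay between sets. The same held for Cldn2, Aqp1, Kcne2, Mfrp, Tmem72, F5 and Slc4a5, the other genes of widest spread within sets, whose between-set shares were 5.97% to 10.5%. The pooled SD within sets had a median of 2.32 on the log2 scale over the 18 genes of the list, against 0.16 over all genes. The first principal component, which held 27.3% of the variance, had Ttr, Slc4a5 and Mfrp as its heaviest genes. The second, which held 14.9%, had Ttr, Slc4a5 and Kcne2. The between-set share was 38.0% for the first component and 10.6% for the second, where sets take 27.3% of the degrees of freedom.

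**Figure D4:**
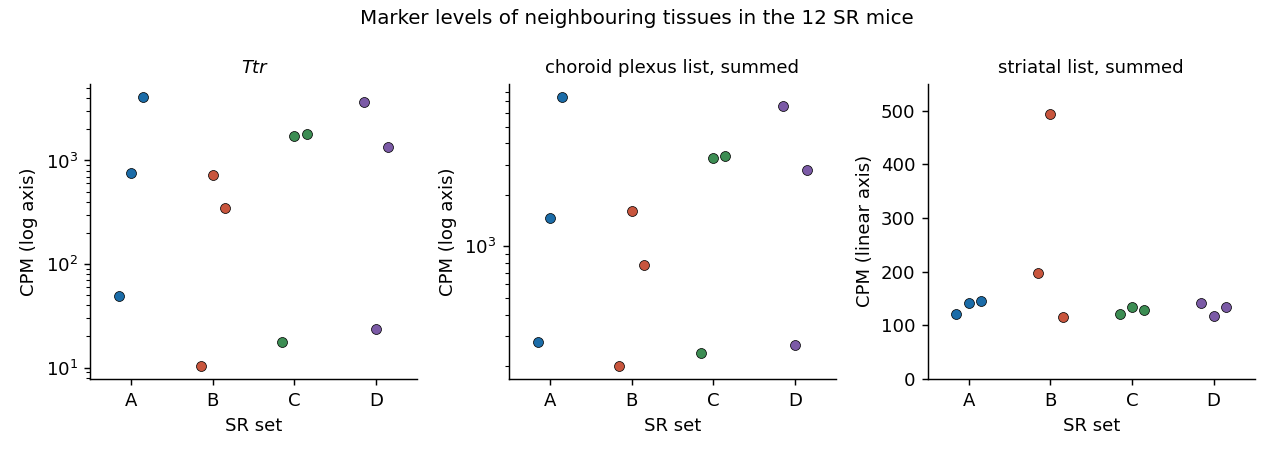
CPM of Ttr, the summed choroid plexus list (log axes) and the summed striatal list (linear axis from 0) in each SR mouse (points) by set (x axes). Each set held a mouse with choroid plexus markers at or under 278 CPM in sum and a mouse at 1615 CPM or more, and B2 at 493 CPM and B1 at 197 CPM stood above the other mice for striatal markers.

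Lists for energy metabolism and translation lay near or below the background of 7.46% in the test among sets. Nuclear OXPHOS subunits had 3 of 83 genes at an unadjusted p under 0.05 (3.61%, median between-set share 25.9%), with the respiratory subunit Cox6a1 the lowest p (101 to 106 CPM in set D and 104 to 136 CPM elsewhere). mRNAs encoded by mitochondria had 1 of 13, mt-Atp8, an ATP synthase subunit that overlaps mt-Atp6, at 54.9 to 55.8 CPM in set D and 59.5 to 88.1 CPM elsewhere. Cytosolic ribosomal proteins had 7 of 85 (8.24%) but 17 higher in set C against the other 3 (2.18% of all genes). Their median between-set share was 36.2%, above the 29.0% over all genes. Rps29 was 9.98, 15.8 and 15.1 CPM in set C and 6.80 to 10.5 CPM elsewhere. Without C3 none of the 85 had an unadjusted p under 0.05 among sets, and without A2 14 had. GABA-A receptor subunits had 3 of 13 (23.1%, led by Gabrd), and receptors of stress hormones and serotonin 0 of 18.

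Neuronal and glial markers fell on both sides of the background of 7.46% of all genes tested. No gene of 10 for dentate granule cells, 10 for CA2 and CA3 neurons and 18 for mature oligodendrocytes had an unadjusted p under 0.05, nor had any of 6 blood genes or 3 pituitary hormone genes. The median between-set share was 45.1% for CA1 neurons, 40.3% for interneurons, 39.8% for microglia and 32.4% for oligodendrocyte precursors, above the 29.0% over all genes. Without B2 these shares were 33.0%, 29.4%, 33.7% and 37.7%, beside 28.3% over all genes. CA1 neurons had 1 of 7 (14.3%), Pex5l, at 169 to 174 CPM in set B and 177 to 200 CPM elsewhere. GABAergic interneurons had 2 of 15 (13.3%, led by Npy) and astrocytes 2 of 14 (14.3%, led by Gjb6). Microglia had 2 of 16 (12.5%, led by Tmem119) and oligodendrocyte precursors 2 of 12 (16.7%, led by Gpr17). Proliferation and neurogenesis had 4 of 16 (25%). Nes, the intermediate filament of neural stem cells, was 12.4 to 13.4 CPM in set A and 13.9 to 19.1 CPM elsewhere. Interferon-stimulated genes had 3 of 24 (12.5%, led by Gbp3), antigen presentation 2 of 15 (13.3%, led by Tap1) and imprinted genes 2 of 29 (6.9%, led by Gnas). Meninges and fibroblasts had 3 of 16 (18.8%, led by Fmod), thalamus with habenula 1 of 11 (9.09%, Nexn) and neocortical layers 1 of 12 (8.33%, Foxp2). Striatal genes had 4 of 13 (30.8%), where Gpr6 was 2.49, 5.22 and 1.20 CPM in set B and 0.327 to 1.84 CPM in the other mice, B2 again being the highest. These small counts moved with single mice left out. They ran from 0 to 10 for meninges, 0 to 6 for neocortical layers, 2 to 7 for interneurons and 3 to 9 for striatal genes. Over all genes the count ran from 993 to 2435.

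The remaining genes named by the rule stood apart in at least 1 set. Gm22753, a small nuclear RNA inside Usp34, was 0.0434 to 0.0827 CPM in set A and 0.187 to 0.681 CPM in the other mice. Gm36210 was 0.0921 to 0.418 CPM in set C and 0.601 to 1.08 CPM elsewhere, and 1600002K03Rik was 0.954 to 1.54 CPM in set A and 1.90 to 2.55 CPM elsewhere. Sytl1, which binds RAB27 at secretory vesicles, stood apart in both set D and set B. It was 0.607 to 0.874 CPM in set D, 2.21 to 2.45 CPM in set B and 1.01 to 1.79 CPM in sets A and C. The unprocessed pseudogene Gm13340 was 6.77 to 9.73 CPM in set C and 3.49 to 6.68 CPM elsewhere, and reads of its parent could be counted there.

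The C57BL/6 substrain list showed a difference inside a set. Entpd4 and Entpd4b, which encode a Golgi nucleoside diphosphatase, lie apart on chromosome 14 (69337174 to 69367270 and 69555424 to 69585520, GRCm38) and their longest reference transcripts are equal in all 3589 bases, so their separate values are uncertain and are given as a sum. How the deposited counts were divided between them was not examined. The sum was 212, 204 and 109 CPM in B1, B2 and B3, and 162 ± 4.95 CPM (SD, n = 9) in the other SR mice, none of which lay outside 155 to 167 CPM. The mice of set B were at 1.31, 1.26 and 0.67 times that mean. The antisense genes Gm16867 and Gm27177 also had B1 and B2 above and B3 below the other 9 mice, with 19.6, 22.8 and 7.16 CPM for Gm16867 in set B and 11.1 to 13.7 CPM in the other 9. Among MS mice, scaled separately, E3 was at 114 CPM and the other 8 were between 146 and 168 CPM. These genes were singled out after their values were seen. With all 12 mice edgeR called neither among sets (between-set share of Entpd4 2.41%), and none of the 7 genes of the list had an unadjusted p under 0.05. Without B3 it called both and also Gm16867 and Gm27177.

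**Figure D5:**
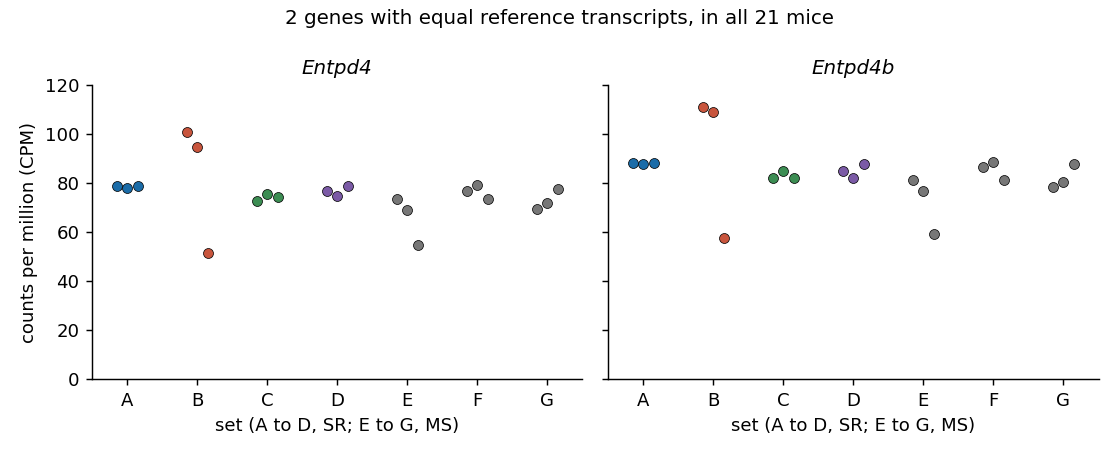
CPM (y axes, from 0) of Entpd4 and Entpd4b in all 21 mice (points) by set (x axes; A to D coloured, SR; E to G grey, MS, scaled separately). B1 and B2 lay above and B3 below the narrow range of sets A, C and D, and E3 lay low among MS mice.

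The 3 MS sets are other mice, and by edgeR 0 of 18561 genes were called among them, 1869 had an unadjusted p under 0.05 (10.1%), and DESeq2 called 251 of 15663 (1.60%). The edgeR count rested on single libraries: it was 18 without E2, 698 without E3 and 1 without G1. Of the genes called among SR sets, Klf10 had an unadjusted edgeR p of 0.00402, Sgk1 of 0.0350 and Oplah of 0.365 among the MS sets. Zfp366, called in set D only, had 0.0281 by the same test. Junb, which was not called in SR mice, had 0.00205, with 59.7 to 87.1 CPM in set E and 48.9 to 54.3 CPM in set G.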

How the data were processed

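Per the labels and the study's methods, RNA was extracted with Trizol, libraries were made with a directional kit, and the authors aligned reads with STAR 2.7.3a to GRCm38 and counted them per Ensembl gene with featureCounts; the strand setting is not given in the sources used here. The deposited values were raw counts per gene, 1 column per mouse. Gene names were matched by ID (346 had none). Counts of the 12 SR libraries were filtered (filterByExpr, minimum count 10), scaled by TMM and tested in R 4.3.3 with edgeR 4.0.16 (robust quasi-likelihood F-test) for any difference among sets and for each set against the mean of the other 3, with Benjamini-Hochberg adjustment over 19023 genes. DESeq2 1.42.0, limma 3.58.1 (voom), other filters and scalings, terms for choroid plexus score, striatal score or late library, and each mouse or set left out were alternatives, of which the striatal term was added after seeing the data. log2 CPM used a prior count of 2. Positions are from GENCODE on GRCm38. Scripts were tested on simulated data. Named genes were those of smallest p among sets (12), the 2 highest and 2 lowest by p of each set, the 8 of widest spread within sets, and the leader of each list with p under 0.05; 1 of them is not reported here; members and lists were chosen with earlier results of these data known. Animals are separate mice, and p-values set the differences among set means against the spread between mice within sets.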

Additional observations from a re-analysis of the deposited data

How the results depend on the processing

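The count among the 4 SR sets was 89 with DESeq2, 91 with no filter, 0 with set D left out, and 1 to 14 with single mice left out (1 without D1 or D3, 14 without B3, 5 without C1). For set A it was 1 with DESeq2, 1 with the choroid plexus term and 0 to 1 with mice left out. For set B it was 95 with DESeq2, 81 with no filter, 1 with the choroid plexus term and 0 to 200 with mice left out (200 without B3, 2 without B2, 1 without D2). For set C it was 3 with no filter. For set D it was 56 with DESeq2, 1 with limma-voom, 61 with no filter, 1 with all 21 libraries, 1 with the late library term, 13 with the striatal term and 1 to 10 with mice left out (10 without B3). Among MS sets it was 251 with DESeq2, 154 with no filter and 0 to 698 with mice left out. The between-set share of the sum of squares fell below its share of the degrees of freedom for the 500 most variable genes (24.9%, exact permutation p = 0.525) and with set B left out (21.9%, exact permutation p = 0.743), and with mice left out it was 29.1% to 34.5%, where 30% is the share of the degrees of freedom. With the choroid plexus term the set B differences of Aqp1 (0.15), Kcne2 (0.15), Mfrp (0.36), Tmem72 (0.43), F5 (0.38), Slc4a5 (0.66) and Ttr (0.58) turned sign (log2); that term is built from these or like genes. For the other changes the cause was not tested. Of the other values of named genes 982 kept direction and side of the threshold, 10 lost the call and 42 gained it. No paired analysis was made, since the sets are of different mice and the labels give nothing that pairs mice across sets. With 3 mice in a set and 8 residual degrees of freedom, a gene that missed the threshold is not shown to be equal among sets.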

Other observations

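Tph1, the tryptophan hydroxylase of the pineal gland and gut, was 18.0 CPM in D3 and 0.0835 to 0.895 CPM in the other 11 SR mice, and it was the heaviest gene of the third principal component (9.62% of the variance). It was at most 2.05 CPM in the MS mice. This gene was singled out after its values were seen.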
